A study of Homo sapiens with 24 samples.

Results

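The 58 genes described here are protein-coding genes of very long genomic span, from first to last annotated base. They were taken from a list of symbols that were mapped to the Ensembl identifiers of the deposited tables, and all 58 were found among the 60675 genes of each table. A member was kept in a cell line when its mean over the 6 control libraries of that line was at least 1 CPM (counts per M counts of the scaled library, where M is the SI prefix mega). By that level rule 53 members were kept for each line, 50 for both lines and 56 in at least 1. The rule left out SOX5, LRP1B, KCNMA1, DLG2 and PTPRD in MDA-MB-231, and GRIK2, RAD51B, LRP1B, CSMD1 and DLG2 in MDA-MB-436. Closest to the limit in MDA-MB-231 were MACROD2 with 1.20 CPM inside it and DLG2 with 0.287 CPM outside it. In MDA-MB-436 they were FHIT with 1.19 CPM inside and DLG2 with 0.672 CPM outside.

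Some members were chosen by their log2 change in MDA-MB-231, where they fell, and 10 of them (AKAP6, GPC6, PRKG1, NLGN1, GRIK2, GRIK4, GRIP1, TRAPPC9, FRY and SLC25A21) each had 1 of the 8 lowest changes among the listed genes in at least 1 comparison of that line. Their values there are therefore given as a description without a test. Members were tested in MDA-MB-436, whose comparisons the choice did not use. Since the level rule reads control libraries, it leans toward genes that are high in the controls. With the mean over all 12 libraries of a line in its place, 52 members were kept for MDA-MB-231 and 53 for the other line, and the counts of called members were the same in all 4 comparisons.

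MDA-MB-231 and MDA-MB-436 are established lines from triple-negative breast cancers, which lack the estrogen and progesterone receptors and amplified ERBB2. RNA was sequenced in 24 libraries, 3 in each of 8 groups. In each line, cells expressing an shRNA against MDM2 (a short hairpin RNA, meant to degrade its transcript) were compared with cells expressing a non-targeting shRNA. In separate groups of each line, cells given YX-2-30 were compared with cells given its vehicle DMSO. YX-2-30 is a PROTAC, a molecule made to bring about degradation of a protein, here the ubiquitin ligase MDM2. The labels give no dose, no duration, no hairpin sequence and nothing that says if the 3 replicates were grown apart, so p-values measure the spread between these libraries, which may be technical.

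MDM2 RNA did not pass the test in any comparison. In MDA-MB-231 it stood at 19.6, 22.4 and 11.2 CPM with the non-targeting shRNA and at 24.3, 23.3 and 30.3 CPM in the libraries labelled MDM2 shRNA, a log2 change of 0.55 ± 0.24 (SE; edgeR adjusted p = 0.137). It stood at 16.6, 23.9 and 14.9 CPM with DMSO and at 19.9, 23.0 and 23.6 CPM with the PROTAC. In MDA-MB-436 it stood at 22.0, 30.6 and 23.8 CPM with the non-targeting shRNA and at 14.8, 28.6 and 27.5 CPM in the libraries labelled MDM2 shRNA (log2 change -0.11 ± 0.22, edgeR adjusted p = 0.780). It stood at 41.4, 30.3 and 36.4 CPM with DMSO and at 23.0, 25.4 and 22.1 CPM with the PROTAC (log2 change -0.61 ± 0.22, edgeR adjusted p = 0.0573). The hairpin libraries thus did not show a fall of the labelled target's RNA in either line, and a protein degrader need not lower RNA. Each hairpin result below is a result of the libraries labelled MDM2 shRNA.

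Library totals ran from 33.4 to 174.7 M counts, with a median of 64.0 M. VIM, KRT8 and KRT18 were present in both lines, whereas the epithelial cadherin gene CDH1, ESR1, PGR and CD3E were at most 0.667 CPM in any library. ERBB2 ran from 67.9 to 88.4 CPM in MDA-MB-231, where it rose by 0.19 on the log2 scale with the labelled MDM2 shRNA. In MDA-MB-436 it ran from 39.4 to 64.4 CPM and fell by 0.45 and 0.43. KRT19 was at least 322 CPM in every MDA-MB-231 library and at most 1.43 CPM in MDA-MB-436. Of the endothelial markers, CDH5 was at most 0.148 CPM in any library and PECAM1 ran from 0.785 to 2.15 CPM in MDA-MB-231. Of the neural markers, RBFOX3, SYP and SNAP25 were at most 1.74 CPM in MDA-MB-231, where GFAP ran from 4.75 to 7.90 CPM, and SYP and SNAP25 reached 13.0 and 11.4 CPM in MDA-MB-436. Of the leukocyte genes, PTPRC ran from 2.76 to 5.32 CPM in MDA-MB-231, and CD68 from 29.2 to 43.9 CPM there and from 16.3 to 34.9 CPM in MDA-MB-436. The mesenchymal markers VIM and FN1 moved in opposite directions in MDA-MB-231. VIM fell there by 0.84 and 0.70 on the log2 scale, and FN1 rose by 0.31 and 0.44. ZEB1 changed there by -0.72, which was not called, and by -1.61 with the PROTAC, which was called lower. In the other line KRT8 fell by 1.02 and 0.91, KRT18 by 0.81 and 0.73 and VIM by 0.24 and 0.57. EPCAM rose in that line by 0.58 and 0.60, and CD68 rose by 0.65 with the PROTAC. Several summed levels also moved with the treatments. Summed histone transcripts ran from 728 to 806 CPM in the MDA-MB-231 control libraries and from 268 to 282 CPM in its treated libraries, and stayed between 161 and 222 CPM in MDA-MB-436. Summed mitochondrial transcripts in MDA-MB-436 ran from 71434 to 78289 CPM in controls and from 50735 to 52554 CPM in treated libraries. Their part in the results below was not tested, and in these bulk libraries fewer cells with a transcript cannot be told apart from less of it per cell.

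A gene is copied into RNA from its start to its end, introns included, so a gene with very long introns is occupied by polymerase for much longer than a short gene that encodes a protein of the same size. The introns are then removed, and RNA sequencing of mature transcripts mostly reads the exons. Very long genes are frequent among receptors, adhesion molecules and scaffolds, many of them studied in neurons, and some of them, FHIT and WWOX among them, lie at common fragile sites.

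In GENCODE 29 (GRCh38) the 58 members spanned 417 kb (MAD1L1) to 2298 kb (PTPRD), with a median of 748 kb, against a median of 27.1 kb over all protein-coding genes. All 58 exceeded 400 kb, a length reached by 494 protein-coding genes in all. Their merged exons added up to a median of 11.2 kb, against 4.21 kb for protein-coding genes, and filled a median of 1.17% of the span, against 15.8%. GPC6, at chr13:93226842-94407401 on the plus strand, had 9 merged exons that filled 0.548% of 1181 kb. PRKG1, at chr10:50990891-52298350 on the plus strand, had 25 merged exons over 1307 kb, and its longest intron was 314 kb. MACROD2, at chr20:13995369-16053197 on the plus strand, had 29 merged exons in 2058 kb. FOXP1, at chr3:70952817-71583993 on the minus strand, was more densely filled, with exons over 5.82% of 631 kb. TBC1D5 had the longest intron of the 58, 702 kb. Exon bases were shared with another annotated gene by 29 of the 58 members, in 8 cases on the same strand and in 24 on the other. The strand of the libraries is not given in the sources used here, so reads of such members and of their partners cannot be told apart.

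**Figure D1:**
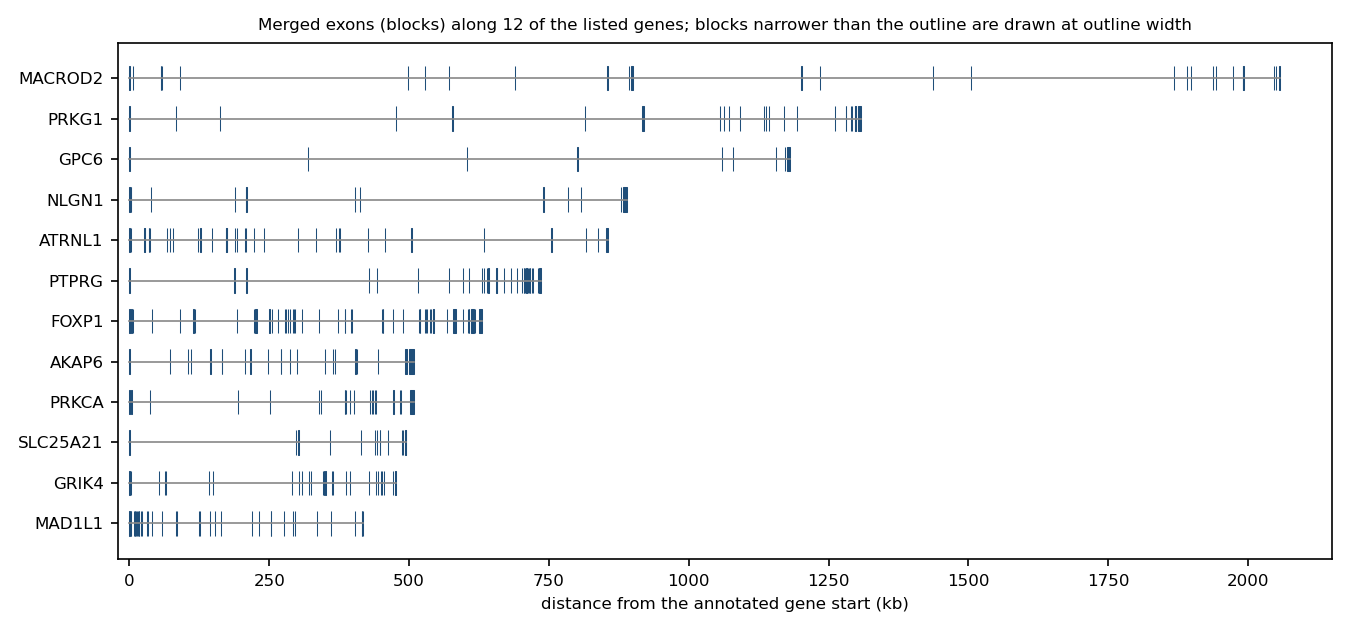
Merged exons (blocks) of 12 members along the distance from the annotated gene start in kb, ordered by span and chosen after their values were seen. MACROD2 extends over 2058 kb and MAD1L1 over 417 kb, and in each gene nearly all of the length is intron.

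In MDA-MB-231 most members were lower after both treatments, and none was called higher. In the libraries labelled MDM2 shRNA, 42 of 53 members were lower than with the non-targeting shRNA and 11 were not called. Over all 20675 genes tested, 11.6% were called lower and 11.1% higher. The median log2 change of the members was -1.32, and the median of all genes tested was 0.01. With the PROTAC, 41 of 53 members were lower than with DMSO and 12 were not called, with a median of -1.36, against 11.5% of all genes lower and 11.1% higher. Nothing is read from these counts, since the fall of some members put them on the list. A comparison chosen after the data were seen set them beside the 12286 protein-coding genes at the same level rule, of which 17.3% and 16.8% were lower. The 43 members outside those 10 were lower in 32 and 31 cases, with medians of -1.08 and -1.21. Of the members, 41 were lower in both comparisons and CSMD1 in the hairpin comparison. NRG1, ATRNL1, MAGI2, LPP, PRKCE, PDE4D, ERC1, MACROD2, FOXP1, TCF4 and FTO were called in neither. The summed level of the members ran from 2225 to 2423 CPM in the control libraries and from 1086 to 1179 CPM in the treated libraries.

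**Figure D2:**
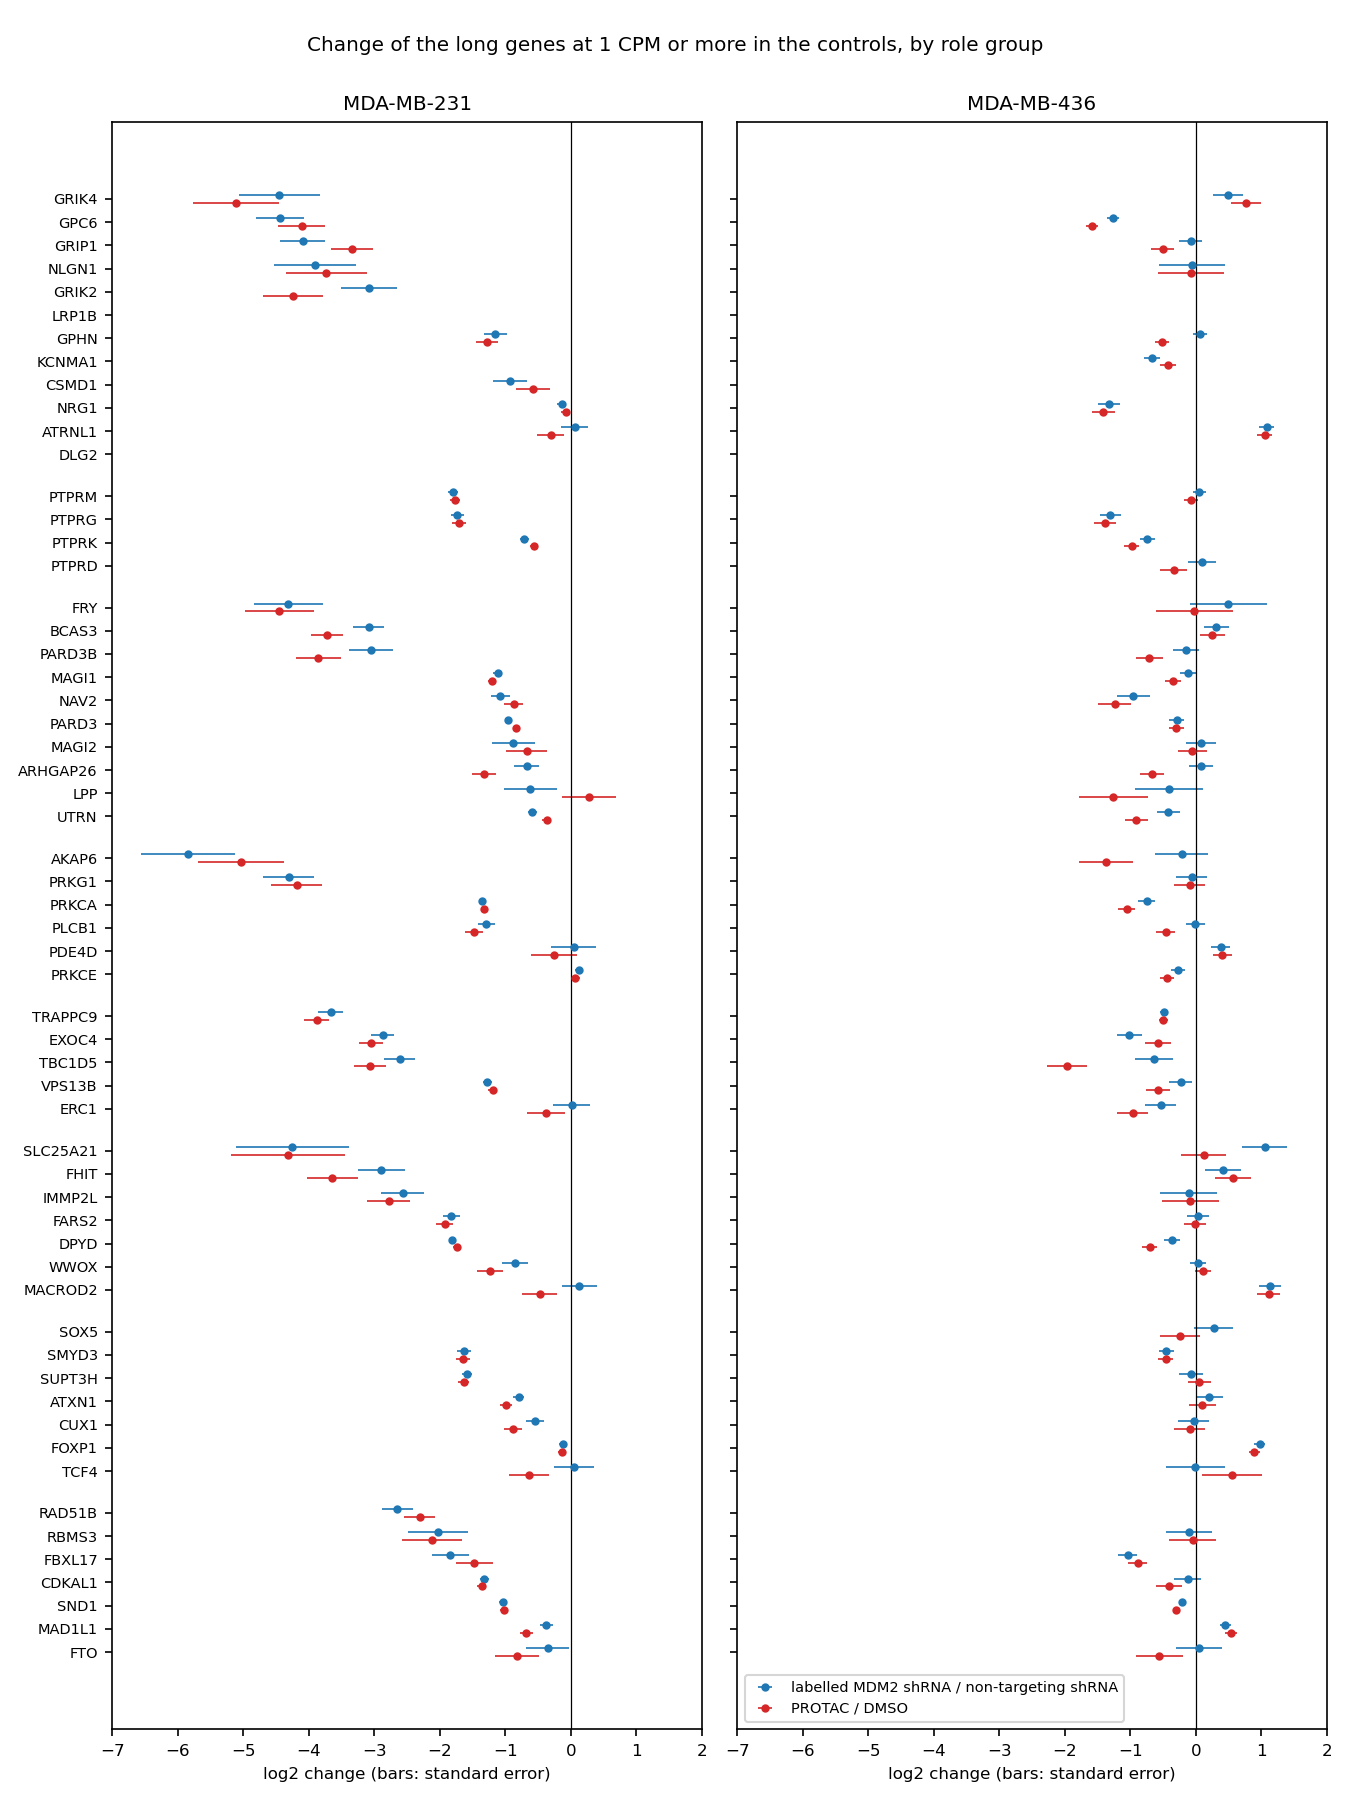
Log2 change (x axis, bars are standard errors) of members at the level rule in each line, in blocks by role group (surface receptors and synaptic proteins; receptor phosphatases; polarity and cytoskeleton; signalling; membrane traffic; metabolism; transcription; RNA, repair, ubiquitin and checkpoint). In MDA-MB-231 the medians were -1.32 (blue, labelled MDM2 shRNA) and -1.36 (red, PROTAC), and those of the right panel, MDA-MB-436, were -0.07 and -0.35.

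The surface and synaptic group held several of the lowest changes of the list in MDA-MB-231. NLGN1 encodes neuroligin, an adhesion protein of synapses. It stood at 3.97, 3.56 and 9.37 CPM with the non-targeting shRNA, 0.253, 0.668 and 0.205 CPM with the labelled MDM2 shRNA, 8.33, 3.96 and 3.98 CPM with DMSO and 0.660, 0.170 and 0.376 CPM with the PROTAC. Its controls spread more than 2-fold, and every treated library lay below every control. Some members were chosen by their fall in this line. Separation of MDA-MB-231 libraries, here and in the paragraphs below, is therefore a description only. GRIK2 and GRIK4 encode subunits of kainate-type glutamate receptors. GRIK2 went from 3.12, 3.05 and 2.75 CPM to 0.222, 0.484 and 0.347 CPM in the hairpin comparison, and from 4.09, 3.04 and 3.37 CPM to 0.0574, 0.170 and 0.327 CPM with the PROTAC. GRIK4 went from 2.29, 2.17 and 2.67 CPM to 0.0633, 0.0501 and 0.205 CPM, and from 2.36, 1.95 and 1.99 CPM to 0, 0.0682 and 0.114 CPM. The 3 hairpin libraries together held 20 deposited GRIK4 counts and the 3 PROTAC libraries 11, against 549 and 440 in the control groups, so the treated levels rest on few counts.

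GRIP1, a scaffold that binds AMPA-type glutamate receptors, stood at 3.49, 4.47 and 4.99 CPM with the non-targeting shRNA and at 0.301, 0.117 and 0.331 CPM with the labelled MDM2 shRNA. It stood at 4.58, 5.04 and 4.10 CPM with DMSO and at 0.459, 0.579 and 0.311 CPM with the PROTAC. The control and treated libraries were far apart in both comparisons. GPC6 encodes a glypican, a heparan sulfate proteoglycan of the cell surface. It went from 10.2, 10.9 and 10.1 CPM to 0.285, 0.618 and 0.536 CPM with the labelled MDM2 shRNA, a log2 change of -4.44 ± 0.36 (SE), and from 8.50, 8.65 and 9.95 CPM to 0.833, 0.256 and 0.458 CPM with the PROTAC, a change of -4.11 ± 0.36. The 4 groups of GPC6 formed a high pair and a low pair with no overlap. At the other end of the group, the change of NRG1, a growth factor that binds ERBB-family receptors, was -0.14 ± 0.07 and -0.07 ± 0.07, and that of ATRNL1, an attractin-like membrane protein, was 0.06 ± 0.21 and -0.31 ± 0.21.

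Signalling members showed the same range. AKAP6 anchors protein kinase A at membranes and had the lowest hairpin change of the list, -5.84 ± 0.71. It stood at 2.33, 2.62 and 1.79 CPM with the non-targeting shRNA, 0, 0 and 0.110 CPM with the labelled MDM2 shRNA, 2.94, 2 and 2.55 CPM with DMSO and 0.0574, 0.0682 and 0.0981 CPM with the PROTAC. Only 1 of the 3 hairpin libraries held any AKAP6 counts, 7 of them, against 528 in its controls, and without that library the fitted change was -10.27, so the size of the change is poorly determined. PRKG1, the cyclic GMP-dependent protein kinase, was steadier. It went from 7.08, 7.13 and 7.12 CPM to 0.317, 0.184 and 0.568 CPM in the hairpin comparison and from 7.59, 7.61 and 7.82 CPM to 0.302, 0.273 and 0.687 CPM in the PROTAC comparison. Its log2 changes were -4.31 ± 0.39 and -4.19 ± 0.38. PRKCA, a conventional protein kinase C, changed by -1.36 ± 0.04 and -1.32 ± 0.04, whereas its relative PRKCE, also a member, changed by 0.13 ± 0.07 and 0.07 ± 0.07.

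FRY encodes a large scaffold protein of the cytoskeleton and cell shape. Its level went from 4.35, 3.84 and 4.32 CPM to 0.206, 0.0668 and 0.347 CPM with the labelled MDM2 shRNA, and from 4.10, 4.16 and 3.89 CPM to 0.0574, 0.341 and 0.164 CPM with the PROTAC. All 6 treated libraries were below 0.4 CPM. In the same role group, the polarity proteins PARD3B and PARD3 changed by -3.05 ± 0.34 and -0.95 ± 0.04 with the labelled MDM2 shRNA, and the dystrophin relative UTRN by -0.59 ± 0.07. LPP, a focal adhesion protein, was not called, and its controls included a library at 124 CPM beside others at 36.7 and 32.1 CPM.

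TRAPPC9, a subunit of a tethering complex of membrane traffic, had the largest fall of its group. It went from 27.6, 27.1 and 25.3 CPM to 1.71, 2.27 and 2.30 CPM in the hairpin comparison and from 28.4, 25.5 and 26.1 CPM to 2.34, 1.33 and 1.75 CPM with the PROTAC. The log2 changes were -3.67 ± 0.19 and -3.88 ± 0.19. EXOC4, an exocyst subunit, changed by -2.87 ± 0.18 and -3.05 ± 0.18, and TBC1D5, a regulator of endosomal sorting, by -2.61 ± 0.24 and -3.06 ± 0.24. ERC1, a scaffold of secretory vesicle sites, was not called in either comparison.

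SLC25A21 is a mitochondrial carrier of dicarboxylic acids. It went from 1.91, 2.28 and 2.32 CPM to 0.253, 0 and 0.0789 CPM, and from 2.90, 1.88 and 1.65 CPM to 0.115, 0.204 and 0 CPM. Each treated group held few SLC25A21 counts, 21 with the hairpin and 20 with the PROTAC, against 495 and 448 in the controls. Among the other metabolic members, FHIT, a diadenosine polyphosphate hydrolase, changed by -2.89 ± 0.37 and -3.64 ± 0.39, and DPYD, which begins pyrimidine breakdown, by -1.81 ± 0.05 and -1.74 ± 0.05. MACROD2, which removes ADP-ribose from proteins, was not called (0.13 ± 0.27 and -0.48 ± 0.27).

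The receptor tyrosine phosphatases PTPRM, PTPRG and PTPRK were lower in both comparisons of MDA-MB-231. PTPRM, a homophilic adhesion receptor, stood at 139.6, 155 and 148 CPM with the non-targeting shRNA and at 41.6, 38.9 and 47.0 CPM with the labelled MDM2 shRNA. The transcription and chromatin group ran from SMYD3, a lysine methyltransferase, at -1.64 ± 0.11 and -1.65 ± 0.11, to FOXP1 at -0.12 ± 0.06 and -0.14 ± 0.06 and TCF4 at 0.05 ± 0.30 and -0.64 ± 0.30. In the group of RNA, repair, ubiquitin and checkpoint genes, the recombination gene RAD51B changed most, by -2.65 ± 0.24 and -2.31 ± 0.24, and FTO, an RNA demethylase, was not called.

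**Figure D3:**
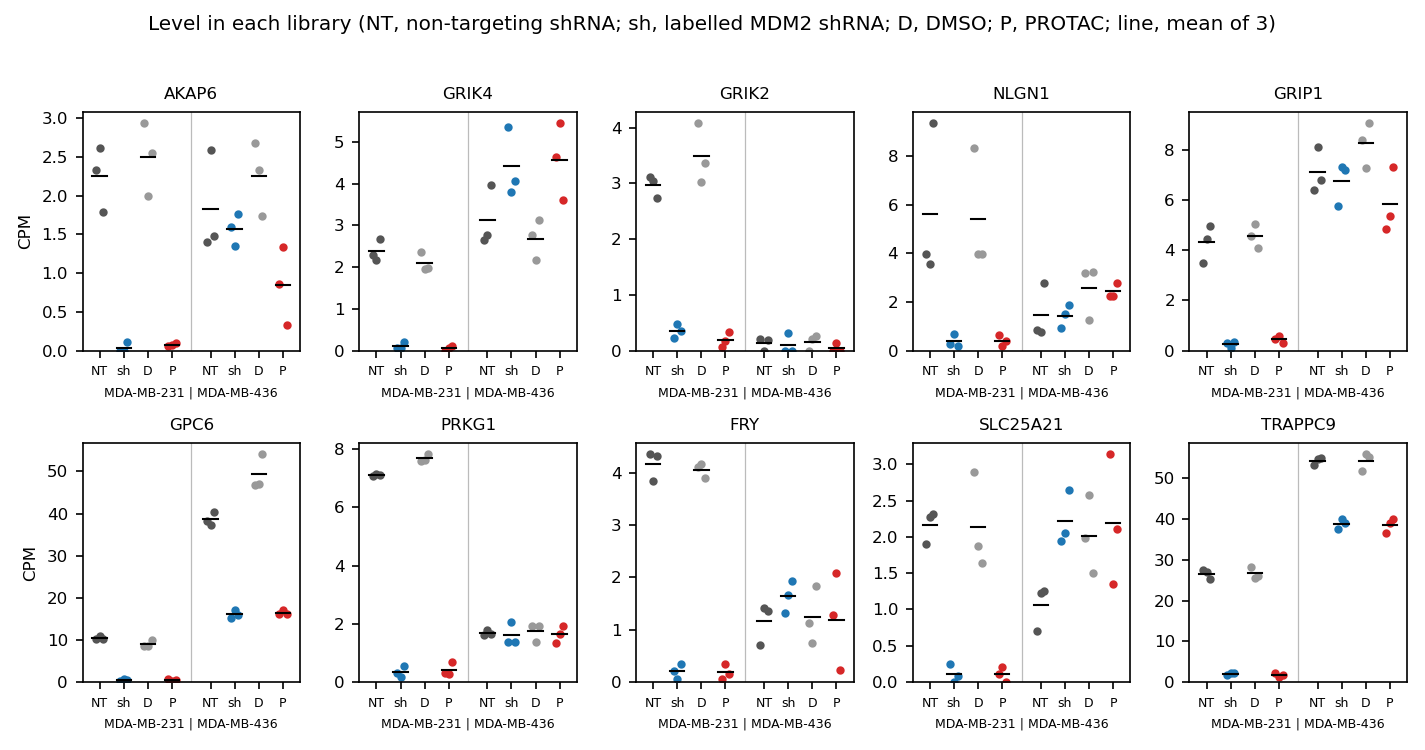
Level in CPM (y axis, from 0) in each library of the 10 members with the lowest changes of the list in MDA-MB-231; points are libraries, lines are means of 3. In MDA-MB-231 the treated libraries lie near 0 for all 10, whereas in MDA-MB-436 the treated libraries of GPC6 (15.1 to 17.2 CPM) and TRAPPC9 (36.5 to 40.1 CPM) lie below their controls in both comparisons, and those of the other 8 overlap their controls in at least 1.

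In MDA-MB-436, where members were tested, changes were smaller and went both ways. In the libraries labelled MDM2 shRNA, 13 of 53 members fell, 5 rose and 35 did not pass the test. Over all 22663 genes tested, 14.4% fell and 16% rose, and over the 12688 protein-coding genes at the same level rule 23.1% fell and 20.5% rose, so the members' 24.5% falling lay near the second background. The median log2 change of the members was -0.07, beside -0.03 for those protein-coding genes. With the PROTAC, 25 of 53 members fell (47.2%), 5 rose and 23 did not pass the test. The background there was 15.1% of all genes falling and 17.3% rising, and 24.1% and 21.5% of protein-coding genes at the level rule. The median of the members was -0.35, beside -0.04 for those genes. With library totals alone in place of TMM scaling, which moved the median of all genes tested by 0.18 and 0.17, the hairpin median of the members was 0.10 and 15 members fell with the PROTAC. Non-member protein-coding genes of at least 400 kb at the level rule numbered 220, of which 30.0% fell in the hairpin comparison and 38.6% with the PROTAC. The summed level of the members in MDA-MB-436 ran from 1678 to 2095 CPM in control libraries and from 1202 to 1494 CPM in treated ones.

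GPC6 had the smallest adjusted p of the members in MDA-MB-436. It stood at 38.2, 37.3 and 40.4 CPM with the non-targeting shRNA, 15.1, 17.2 and 16.0 CPM with the labelled MDM2 shRNA, 46.8, 47.1 and 54.1 CPM with DMSO and 16.2, 17 and 16.1 CPM with the PROTAC. Its groups did not overlap, and the changes were -1.26 ± 0.09 (edgeR adjusted p = 1.27e-06) and -1.58 ± 0.09 (2.75e-07). NRG1 fell in both comparisons of MDA-MB-436 and was not called in MDA-MB-231. It stood at 16.8, 14.5 and 16.1 CPM with the non-targeting shRNA, 8.23, 5.84 and 4.79 CPM with the labelled MDM2 shRNA, 17.1, 17 and 14.7 CPM with DMSO and 6.37, 5.97 and 5.96 CPM with the PROTAC. Its changes were -1.33 ± 0.17 (edgeR adjusted p = 1.42e-04) and -1.41 ± 0.17 (8.54e-05). KCNMA1, a calcium-activated potassium channel below the level rule in MDA-MB-231, also fell in both comparisons, by 0.67 and 0.42 on the log2 scale.

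Among the receptor tyrosine phosphatases, PTPRK and PTPRG fell, and PTPRM and PTPRD did not pass the test. PTPRK stood at 116, 112 and 108 CPM with the non-targeting shRNA, 63.3, 67.7 and 70.7 CPM with the labelled MDM2 shRNA, 147, 133 and 151 CPM with DMSO and 59.9, 73.4 and 85.7 CPM with the PROTAC. PTPRG stood at 29.8, 24.9 and 28.3 CPM with the non-targeting shRNA, 10.6, 12 and 11 CPM with the labelled MDM2 shRNA, 35.3, 28.3 and 35.4 CPM with DMSO and 9.89, 12 and 16.1 CPM with the PROTAC. Controls and treated libraries of both genes were apart. PTPRG changed by -1.30 ± 0.17 (edgeR adjusted p = 1.23e-04) and -1.38 ± 0.17 (7.31e-05), and PTPRK by -0.74 ± 0.11 (4.10e-04) and -0.98 ± 0.11 (5.04e-05). PTPRM differed between the lines. Its changes were 0.06 ± 0.10 and -0.07 ± 0.10 in MDA-MB-436, against -1.79 ± 0.08 and -1.77 ± 0.08 in the other line. The line difference of PTPRM, MDA-MB-436 minus MDA-MB-231, was 1.84 ± 0.12 and 1.71 ± 0.12, and for PTPRK it was -0.04 ± 0.12 and -0.42 ± 0.12.

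PRKCA stood at 40.2, 44.6 and 43.6 CPM with the non-targeting shRNA, 23.4, 26.6 and 26.3 CPM with the labelled MDM2 shRNA, 49.5, 43.3 and 56.4 CPM with DMSO and 24.1, 27.7 and 20.1 CPM with the PROTAC. Its groups were apart, and it fell by 0.75 (edgeR adjusted p = 8.87e-04) and 1.05 (7.79e-05) on the log2 scale. TRAPPC9 stood at 53.3, 54.8 and 55.1 CPM with the non-targeting shRNA, 37.5, 40.1 and 39.1 CPM with the labelled MDM2 shRNA, 51.9, 56.0 and 55.2 CPM with DMSO and 36.5, 39.1 and 40.0 CPM with the PROTAC. It fell by 0.48 ± 0.07 and 0.50 ± 0.07 on the log2 scale (edgeR adjusted p = 2.03e-04 and 1.58e-04), against -3.67 and -3.88 in MDA-MB-231. FBXL17, a substrate receptor of a ubiquitin ligase, stood at 17.1, 15.6 and 16.5 CPM with the non-targeting shRNA, 7.82, 8.75 and 7.42 CPM with the labelled MDM2 shRNA, 18.5, 17.9 and 18.4 CPM with DMSO and 8.18, 9.15 and 12.4 CPM with the PROTAC. It fell by 1.04 and 0.88 on the log2 scale (edgeR adjusted p = 2.35e-04 and 6.53e-04), with no overlap.

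TBC1D5 had the lowest PROTAC change of the members in MDA-MB-436. It stood at 58, 83.8 and 87.2 CPM with the non-targeting shRNA, 52.5, 55.5 and 39.7 CPM with the labelled MDM2 shRNA, 116, 93.5 and 116 CPM with DMSO and 16.7, 23.5 and 43.3 CPM with the PROTAC. The PROTAC libraries spread widely but lay below all DMSO libraries. Its change was -1.97 ± 0.30 with the PROTAC (edgeR adjusted p = 4.00e-04) and -0.63 ± 0.29 with the labelled MDM2 shRNA (0.130). All 5 membrane traffic members fell with the PROTAC, and EXOC4 and TRAPPC9 also fell in the hairpin comparison. Of all protein-coding genes at the level rule, 24.1% fell with the PROTAC and 23.1% in the hairpin comparison. Nothing is read from a group of 5 members.

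Members that rose in MDA-MB-436 were FOXP1, ATRNL1, MACROD2 and MAD1L1 in both comparisons, SLC25A21 in the hairpin comparison and GRIK4 in the PROTAC comparison. FOXP1, a forkhead transcription factor, stood at 24.9, 25.6 and 24.2 CPM with the non-targeting shRNA, 49.0, 46.8 and 51.1 CPM with the labelled MDM2 shRNA, 23.3, 24 and 26.4 CPM with DMSO and 44.3, 49.6 and 43.0 CPM with the PROTAC. Its changes were 0.98 ± 0.08 (edgeR adjusted p = 6.32e-06) and 0.89 ± 0.08 (1.09e-05). ATRNL1 stood at 8.68, 9.99 and 10.5 CPM with the non-targeting shRNA, 20.3, 21.0 and 20.5 CPM with the labelled MDM2 shRNA, 9.43, 11.9 and 11.4 CPM with DMSO and 22.4, 21.9 and 23.6 CPM with the PROTAC. All 6 treated libraries of both genes lay well above their controls, and the changes of ATRNL1 were 1.08 ± 0.11 (2.60e-05) and 1.05 ± 0.11 (3.00e-05).

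MACROD2 stood at 2.4, 2.39 and 1.68 CPM with the non-targeting shRNA, 4.12, 5.22 and 4.81 CPM with the labelled MDM2 shRNA, 2.09, 2.34 and 2.23 CPM with DMSO and 4.51, 5.03 and 4.88 CPM with the PROTAC. Although it is among the longest members, it rose by 1.13 ± 0.17 and 1.11 ± 0.17 on the log2 scale (edgeR adjusted p = 4.05e-04 and 4.29e-04). MAD1L1, a component of the mitotic spindle checkpoint and the shortest member, stood at 72.3, 75.1 and 64.4 CPM with the non-targeting shRNA, 101, 98.5 and 90.8 CPM with the labelled MDM2 shRNA, 63.2, 65.5 and 53.1 CPM with DMSO and 89.9, 88.3 and 85.4 CPM with the PROTAC. Its groups were apart, with changes of 0.45 ± 0.09 and 0.54 ± 0.09 (edgeR adjusted p = 2.40e-03 and 7.44e-04).

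GRIK4 stood at 2.64, 2.77 and 3.97 CPM with the non-targeting shRNA, 5.37, 3.8 and 4.08 CPM with the labelled MDM2 shRNA, 2.77, 2.16 and 3.12 CPM with DMSO and 4.64, 5.46 and 3.60 CPM with the PROTAC. The change with the PROTAC was 0.77 ± 0.23 (edgeR adjusted p = 0.0247), and the call was lost without a filter on low genes, and without PROTAC library 1 or 2 or DMSO library 1 or 2 (log2 changes of 0.61 to 0.80). SLC25A21 stood at 0.699, 1.23 and 1.25 CPM with the non-targeting shRNA, 1.95, 2.05 and 2.65 CPM with the labelled MDM2 shRNA, 1.98, 2.57 and 1.5 CPM with DMSO and 3.14, 1.35 and 2.11 CPM with the PROTAC. Its hairpin change was 1.05 ± 0.34 (edgeR adjusted p = 0.0365), and this call was lost without a filter and without any 1 of its 6 libraries (0.83 to 1.21). The PROTAC change of SLC25A21 was 0.12 ± 0.34, and its groups overlapped.

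**Figure D4:**
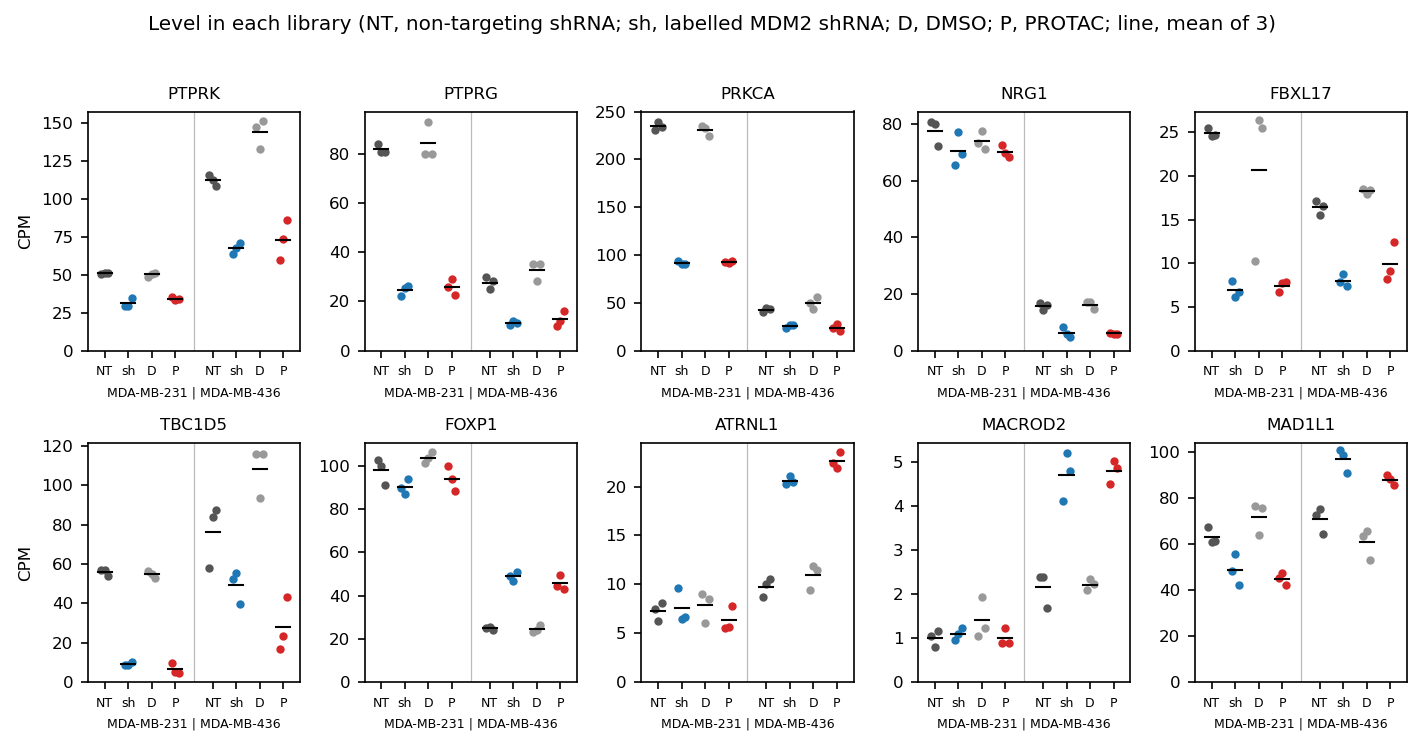
Level in CPM (y axis, from 0) in each library of 10 members with small adjusted p in MDA-MB-436; points are libraries, lines are means of 3. In MDA-MB-436 the first 6 genes lie below their controls in all 6 treated libraries and FOXP1, ATRNL1, MACROD2 and MAD1L1 lie above, while NRG1, FOXP1, ATRNL1 and MACROD2 overlap or nearly overlap their controls in MDA-MB-231.

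By role group in MDA-MB-436, the surface and synaptic proteins had 3 of 8 members lower and 1 higher in the hairpin comparison, and 5 lower and 2 higher with the PROTAC. Over all protein-coding genes at the level rule, 23.1% were lower and 20.5% higher in the hairpin comparison. With the PROTAC these shares were 24.1% and 21.5%. The role groups are small, so nothing is read from their counts. Polarity, adhesion and cytoskeleton had 1 of 10 lower (NAV2, a navigator of cell migration) and 5 of 10 lower with the PROTAC, with none higher. Kinase, cyclic nucleotide and lipid signalling had 1 of 6 lower (PRKCA) and then 4 of 6, PRKCA, PRKCE, PLCB1 and AKAP6. Of 7 metabolic members, DPYD fell in both comparisons, MACROD2 rose in both, and the group medians were 0.04 and 0.11. Of 7 transcription and chromatin members, SMYD3 fell, FOXP1 rose, and SOX5, TCF4, CUX1, ATXN1 and SUPT3H did not pass the test in either comparison. SND1, a nuclease of RNA-processing complexes, fell by 0.21 and 0.30 on the log2 scale. AKAP6 fell with the PROTAC by 1.37 ± 0.42 on the log2 scale (edgeR adjusted p = 0.0257, a call lost without PROTAC library 1 or DMSO library 1 or 2 and in a fit of those 6 libraries alone), from 2.68, 2.32 and 1.74 CPM to 0.864, 1.34 and 0.333 CPM.

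Promoter sequence is shown for a pair of members that fell in both comparisons of MDA-MB-436 (GPC6 and PTPRG) and a pair that rose (FOXP1 and ATRNL1), so that the letters before the start of oppositely moving long genes can be compared. They were chosen after their values were seen. Each is the 250 bases before the RefSeq gene start (GRCh38.p14), written 5′ to 3′ on the gene's strand, with motif matches in capitals. RefSeq and GENCODE starts can differ, and the FOXP1 window lies within the GENCODE span of FOXP1 given above. The motif of the TATA box, which positions polymerase, was searched as TATAAA. For the CCAAT box, bound by the factor NF-Y, the 5 letters of its name were searched. A GC box, bound by SP-family factors, was any match to GGGCGG. Both strands were searched, so a match on the other strand appears as the reverse complement.
GPC6, chr13:93226557-93226806, plus strand: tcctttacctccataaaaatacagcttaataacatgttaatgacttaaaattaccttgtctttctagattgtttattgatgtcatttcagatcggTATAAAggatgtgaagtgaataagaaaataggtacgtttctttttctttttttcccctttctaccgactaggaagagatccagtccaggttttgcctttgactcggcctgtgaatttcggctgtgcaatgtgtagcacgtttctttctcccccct
PTPRG, chr3:61561321-61561570, plus strand: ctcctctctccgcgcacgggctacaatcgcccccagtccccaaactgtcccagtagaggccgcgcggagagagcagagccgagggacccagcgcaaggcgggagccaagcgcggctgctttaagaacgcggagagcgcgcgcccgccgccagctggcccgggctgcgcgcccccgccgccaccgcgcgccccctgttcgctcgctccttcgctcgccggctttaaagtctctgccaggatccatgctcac
FOXP1, chr3:71583729-71583978, minus strand: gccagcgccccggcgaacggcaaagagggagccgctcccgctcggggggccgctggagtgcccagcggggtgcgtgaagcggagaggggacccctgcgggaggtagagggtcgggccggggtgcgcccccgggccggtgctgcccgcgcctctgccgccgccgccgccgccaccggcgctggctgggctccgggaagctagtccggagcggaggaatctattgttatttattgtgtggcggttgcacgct
ATRNL1, chr10:115093115-115093364, plus strand: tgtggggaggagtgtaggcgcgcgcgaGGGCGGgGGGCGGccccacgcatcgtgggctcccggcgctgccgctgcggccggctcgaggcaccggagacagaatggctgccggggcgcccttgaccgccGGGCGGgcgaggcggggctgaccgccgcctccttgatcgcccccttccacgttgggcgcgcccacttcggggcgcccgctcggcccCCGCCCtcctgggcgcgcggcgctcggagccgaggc
The GPC6 promoter was 37.6% GC with 6 CG pairs and held the TATA match, whereas the other 3 were 71.2% (PTPRG), 74% (FOXP1) and 80% GC (ATRNL1) with 31 to 39 CG pairs. Among the 50 members matched in the RefSeq table, 1 promoter held a match to TATAAA, GPC6, against 11.1% of all 27305 promoters. Matches were counted wherever they lay in the 250 bases, so the distance to the start was not considered. The CCAAT box was found in 11 of 50 (22%), against 33.0% of all, and the GC box in 26 of 50 (52%), against 42.3% of all. The median GC content was 67.8% over the members and 58% over all promoters. The matches describe letters in these windows, and both members that fell and members that rose had GC-rich promoters.

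The hairpin and the PROTAC gave much the same picture of the members within a line. Some members were chosen by both changes in MDA-MB-231, so their likeness there is a description only. Across the 53 members the Spearman correlation of the log2 changes was 0.96 in MDA-MB-231, against 0.83 for MDA-MB-436. The points are genes measured in the same 12 libraries, so they are not independent, but the comparisons have separate controls. The edgeR test of the PROTAC effect minus the hairpin effect called 0 of 53 members in MDA-MB-436 and 1 of 22663 genes (0.00441%). In MDA-MB-231 the same difference was called for 1 of 20675 genes (0.00484%), which was not a member. At an unadjusted p under 0.05, 5 of 53 members of MDA-MB-436 were counted, beside 1230 of all 22663 genes tested. DESeq2 called 0 members. The lowest difference was that of TBC1D5, -1.34 ± 0.41, so the 12 members that fell with the PROTAC and were not called with the hairpin are not shown to differ between the treatments. Compared directly, as added after the data were seen, DMSO differed from the non-targeting shRNA in 0 of 20675 genes by edgeR in MDA-MB-231 (903 at an unadjusted p under 0.05) and in 4 of 22663 in MDA-MB-436 (0.0176%). At an unadjusted p under 0.05 the control groups of MDA-MB-436 differed in 2579 genes and 11 of 53 members, and the median member was 0.17 higher on the log2 scale with DMSO than with the non-targeting shRNA. The treated groups of that line differed at this p in 1051 genes and 1 of 53 members. The median member differed by -0.01 between the PROTAC and the labelled MDM2 shRNA. The lower PROTAC median of the members there thus went with higher DMSO levels, not with lower treated levels. The PROTAC differed from the labelled MDM2 shRNA in 3 genes of MDA-MB-231 (0.0145%) and 1 of MDA-MB-436, and no member was called in any of these.

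Changes of the members in the lines are set side by side here as a description, since members chosen by a fall in MDA-MB-231 have a positive line difference in part by that choice. Over the 50 members kept in both, the Spearman correlation of the change in MDA-MB-231 with that in MDA-MB-436 was 0.11 for the hairpin comparison and 0.02 for the PROTAC. The largest line differences, MDA-MB-436 minus MDA-MB-231, belonged to members of low treated levels in MDA-MB-231, most of them among the 10 named above. That of AKAP6 was 5.62 ± 0.87 and 3.69 ± 0.81, that of GRIK4 4.93 ± 0.63 and 5.90 ± 0.67, that of SLC25A21 5.29 ± 0.94 and 4.44 ± 0.94, that of FRY 4.79 ± 0.87 and 4.46 ± 0.87, and that of PRKG1 4.23 ± 0.46 and 4.10 ± 0.46. PRKG1 in MDA-MB-436 was flat, at 1.63, 1.78 and 1.64 CPM with the non-targeting shRNA, 1.38, 2.07 and 1.38 CPM with the labelled MDM2 shRNA, 1.94, 1.36 and 1.92 CPM with DMSO and 1.33, 1.66 and 1.91 CPM with the PROTAC. NRG1 differed the other way, by -1.20 ± 0.19 and -1.33 ± 0.19. NAV2 and PTPRK were close in the hairpin comparison, with differences of 0.11 ± 0.31 and -0.04 ± 0.12. Of the 9 of these 10 that were kept in MDA-MB-436, GPC6 and TRAPPC9 fell in both comparisons, GRIP1 and AKAP6 fell with the PROTAC, GRIK4 and SLC25A21 rose in 1 comparison each, and NLGN1, PRKG1 and FRY were called in neither. GRIP1 fell by 0.50 ± 0.18 on the log2 scale (edgeR adjusted p = 0.0497), with a treated library at 7.32 CPM above a DMSO library at 7.30 CPM. That call was lost with library totals alone, without a filter, in a fit of the 6 libraries alone and without any 1 of 5 of its 6 libraries (-0.57 to -0.40). GRIK2 was at most 0.318 CPM in any MDA-MB-436 library.

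Change was related to span across the genome in MDA-MB-231. Among protein-coding genes other than the members, the median hairpin change was 0.06 for spans of 10 to 50 kb (6184 genes), -0.08 for 100 to 200 kb (1707 genes), -0.32 for 200 to 400 kb (775 genes), -0.97 for 400 to 1000 kb (253 genes) and -0.94 for 1000 kb and over (29 genes). The share called lower was 10.3%, 21.9%, 41.8%, 54.5% and 58.6% in these classes. With the PROTAC the medians were 0.06, -0.04, -0.31, -0.88 and -0.88. In all, 155 of the 282 non-member genes of 400 kb and over were lower in the hairpin comparison and 152 with the PROTAC, with medians of -0.95 and -0.88, and 12 and 13 were higher. These genes share the libraries with the members and are not a separate experiment. Genes of the longest classes also had fewer reads, with a median of 8.65 CPM in the controls for 400 to 1000 kb against 28.4 CPM for 10 to 50 kb. At the level rule the median hairpin changes of the 2 longest classes, members included, were -1.05 and -0.83, and the PROTAC medians were -0.99 and -0.56, so that the longest class (28 genes) lay above the class before it. Across all 14307 protein-coding genes tested the Spearman correlation of change with span was -0.23 for the hairpin and -0.17 for the PROTAC.

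In MDA-MB-436 the classes differed less. For non-member genes of 400 to 1000 kb the medians were 0.10 with the labelled MDM2 shRNA and -0.07 with the PROTAC (305 genes), with 20.7% and 27.2% lower. At the level rule, members included, the medians of that class were -0.16 and -0.30, and 29.6% and 41.3% were lower, against medians of 0.01 and 0.01 and shares of 21.8% and 21.1% for 10 to 50 kb. With the PROTAC the share lower at the level rule rose from 15.7% under 10 kb to 41.3% at 400 to 1000 kb, and was 30.8% at 1000 kb and over. The Spearman correlation with span across 15384 protein-coding genes was -0.05 for the hairpin and -0.14 for the PROTAC. At the level rule it was -0.06 and -0.17, against -0.22 and -0.15 in MDA-MB-231. By this measure the PROTAC relation was not weaker in MDA-MB-436.

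**Figure D5:**
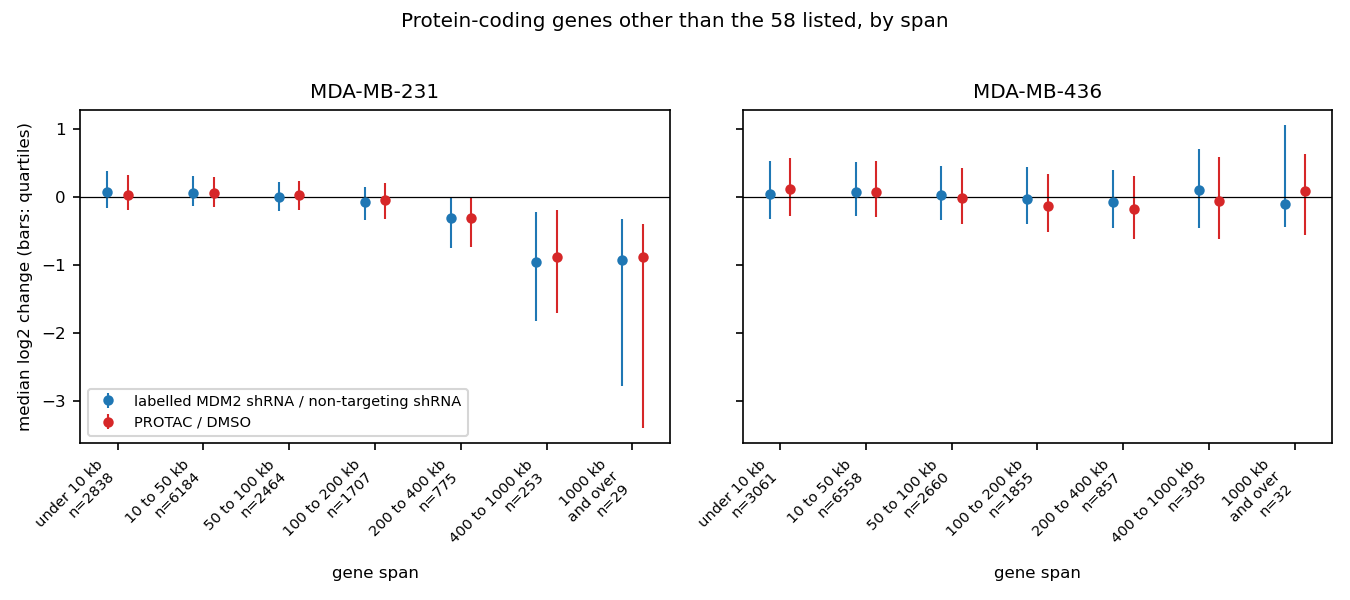
Median log2 change (y axis, bars are quartiles) of protein-coding genes other than the 58 members by span class (x axis, with the number of genes). In MDA-MB-231 the medians fall to -0.97 and -0.88 at 400 to 1000 kb, whereas in MDA-MB-436 they are 0.10 and -0.07.

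Within the list itself, the Spearman correlation of change with span over 53 members was -0.15 and -0.09 in MDA-MB-231, against -0.04 and -0.01 for MDA-MB-436. Over the 43 members outside the 10 lowest it was -0.29 and -0.21 in MDA-MB-231. Correlation with the length of the longest intron was -0.30 and -0.26 in MDA-MB-231 (-0.40 and -0.34 over those 43), and with the exonic share of the span 0.32 and 0.32. In MDA-MB-436 the corresponding values for the longest intron were -0.02 and 0.01. There the change went with the level in the controls, with Spearman correlations of -0.62 and -0.57 over the members and -0.38 and -0.33 over all protein-coding genes, and the control level enters both quantities. In MDA-MB-231 the correlations with control level were 0.32 and 0.37 over the members (0.04 and 0.12 over those 43) and -0.16 and -0.11 over all protein-coding genes. Over the 53 members of MDA-MB-231 they were 0.37 and 0.37 with the number of merged exons, and 0.33 and 0.34 with merged exon length. FOXP1 and TCF4, with exons over 5.82% and 6.29% of their spans, were the most densely filled members and were called in neither comparison of MDA-MB-231. MACROD2, with 0.555%, was also not called, and AKAP6, with 3.88%, had the lowest hairpin change.

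Shorter genes of the same families and complexes were read beside the members. Of 116 listed relatives, 98 spanned less than 200 kb. In MDA-MB-231, 89 of them were at the level rule, of which 15 were lower and 12 higher in the hairpin comparison and 16 lower and 11 higher with the PROTAC, with medians of -0.04 and 0.05. The shares were 16.9% and 18.0% lower and 13.5% and 12.4% higher. They lay near those of all protein-coding genes at the level rule, 17.3% and 16.8% lower and 15.7% and 16.2% higher. The member lay below the median of its relatives in 28 and 27 of 31 families, a count that the choice of some members by their fall in this line helped to set. The exocyst subunits EXOC7 (40.6 kb) and EXOC5 (68.5 kb) changed by 0.57 ± 0.20 and 0.24 ± 0.11 with the labelled MDM2 shRNA, where EXOC4, which spans 814 kb, changed by -2.87 ± 0.18. TRAPPC8 and TRAPPC12, subunits of the same family of tethering complexes as TRAPPC9, changed by 0.04 ± 0.10 and -0.20 ± 0.13. The recombination genes XRCC2 and XRCC3, paralogs of RAD51B, rose by 0.64 ± 0.07 and 0.57 ± 0.10, and NLGN2, a neuroligin of 15 kb, by 0.29 ± 0.06. Among the 15 that were lower, the receptor phosphatase PTPRU (90.3 kb) had the lowest change, -1.65 ± 0.11. MACROD1 (168 kb) followed with -1.40 ± 0.10, where MACROD2 was not called. Next were the phosphatase PTPRE (-0.90), the Wnt co-receptor LRP5 (-0.89), the active zone protein RIMS3 (-0.77) and the phosphatase PTPRJ (-0.71).

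In MDA-MB-436, 91 relatives were at the level rule, 26 lower and 14 higher in the hairpin comparison and 29 lower and 22 higher with the PROTAC, with medians of -0.06 and -0.14. The shares were 28.6% and 31.9% lower and 15.4% and 24.2% higher. Those of all protein-coding genes at the level rule were 23.1% and 24.1% lower and 20.5% and 21.5% higher. The member lay below its relatives' median in 18 and 20 of 31 families. PTPRF and PTPRJ fell by 1.01 and 0.85 on the log2 scale in the hairpin comparison, beside PTPRG and PTPRK. GPC1 (32.4 kb) fell by 0.89 beside GPC6. FOXP4 (56.0 kb) rose by 0.43 ± 0.07 with the PROTAC, and its hairpin change was 0.12 ± 0.07. These values are from the same edgeR fits with adjustment over all genes tested.

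Genes lying wholly within introns of the members gave few readings. Of 289 annotated, 21 were tested in MDA-MB-231 and 25 in the other line. Of the 21, 2 were lower in each comparison (9.52%, against 11.6% and 11.5% of all genes tested). Both were on the same strand as their host and annotated as sense-intronic RNA, AC005746.1 in BCAS3 and AP001094.2 in PTPRM. With the PROTAC 1 was higher, AC002525.1 on the other strand within FRY, with a log2 change of 3.10 (edgeR adjusted p = 0.0483). BCAS3, which takes part in cytoskeletal organisation and autophagy, changed by -3.08 ± 0.24 in the hairpin comparison. CSTF2T, a polyadenylation factor within PRKG1 on the other strand, changed by -0.06 and 0.02 in the comparisons where PRKG1 changed by -4.31 and -4.19. FLRT3, an adhesion protein gene within MACROD2, was not called in either line. In MDA-MB-436 the hairpin changes of the 25 ran from -1.73 to 1.87 without a call by edgeR, and with the PROTAC 1 was lower and 2 were higher. These PROTAC shares were 4% and 8%, against 15.1% and 17.3% of all genes tested.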

How the data were processed

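RNA of 24 libraries was extracted with TRIzol and made into libraries with a NEBNext Ultra II kit, per the labels. The deposited values are whole-number counts per gene for 60675 Ensembl genes, which the authors made with cutadapt 2.4, HISAT2, StringTie and edgeR on GRCh38, per the submitters' processing notes, which give these names without their roles. The annotation, counting rule and strand setting are not given in the sources used here. Low deposited counts pile up at multiples of 4, so an alternative chosen after seeing the data divided all counts by 4. Under it the counts of called members stayed close to those reported in all 4 comparisons. How many reads a deposited count stands for is not known, so the low counts given above may rest on fewer reads. Totals ran from 33.4 to 174.7 M counts per library (M is mega). Of the gene identifiers, 57055 were in GENCODE 29, and they held 99.9% of the counts.

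Counts were tested with edgeR 4.0.16 in R 4.3.3. After TMM scaling and filterByExpr, a quasi-likelihood model with 1 term per group was fitted to the 12 libraries of a line (8 residual degrees of freedom), and p-values were adjusted by Benjamini-Hochberg over all genes tested, with a threshold of 0.05. Errors are given as standard errors (SE) of the log2 change. Each was worked back from the test, as the absolute log2 change divided by the square root of its F statistic. The fit was tested on simulated data. DESeq2 1.42.0, other scaling, no filter, the replicate number as a block, the 6 libraries of a comparison alone and leaving out each library were alternatives.

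The members, their role groups and the list of relatives were chosen with earlier results of these data known. Values per library are given for the 10 members with the lowest changes of the list in MDA-MB-231 and for the members called in MDA-MB-436 with the smallest adjusted p, up to 8 per direction, and other members were described by role group. PTPRM and MDM2 are shown besides, PTPRM chosen after its values were seen. Replicates were not paired: deviations of same-numbered libraries correlated between -0.03 and 0.04 over 12 pairs. No 2 libraries were duplicates.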

Additional observations from a re-analysis of the deposited data

Results flagged for a closer look

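In 6 cases every treated library of a member lay on one side of its controls in MDA-MB-231 and on the opposite side in MDA-MB-436. The share of all genes that met this description was not counted, so nothing is read from the number of cases. SLC25A21 and GRIK4 were among the lowest changes of the list in MDA-MB-231, so their side there is a description only. The line difference is the log2 change in MDA-MB-436 minus that in MDA-MB-231, and its significance was not tested. In the hairpin comparison it was 5.29 for SLC25A21, 3.28 for FHIT and 0.81 for MAD1L1. With the PROTAC it was 5.90 for GRIK4, 1.04 for FOXP1 and 1.22 for MAD1L1. MAD1L1 was the member for which both comparisons met this description. FHIT did not pass the test in MDA-MB-436, and FOXP1 was not called in MDA-MB-231.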

How the results depend on the processing

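Of the counts and medians of the members recomputed under other settings, most kept their direction and stayed close to the values reported. Medians of long protein-coding genes were less steady, and at most 2 of 4 settings left any of them close. As first computed, genes of 400 kb and over, members included, had hairpin and PROTAC medians of -1.04 and -0.99 in MDA-MB-231. For the other line they were 0.034 and -0.092, and each changed sign under a setting below. The hairpin median of the relatives in MDA-MB-231 changed sign too. With library totals alone, 1 member was called higher in the hairpin comparison of MDA-MB-231, and the median of the members was -1.22 there, -1.28 with the PROTAC, 0.10 in the hairpin comparison of MDA-MB-436 and -0.18 with the PROTAC, where 15 fell. Under the same setting, protein-coding genes of 400 kb and over had medians of -0.94 and -0.91 in MDA-MB-231 against 0.21 and 0.073 in MDA-MB-436. Among members sharing no exon base with another gene, fewer by construction, 25 and 25 were lower in MDA-MB-231 with medians of -1.58 and -1.48. In MDA-MB-436 they numbered 6 lower and 1 higher in the hairpin comparison, and 13 lower and 2 higher with the PROTAC (median -0.41). Long genes sharing no exon base had medians of -1.14 and -1.21 in MDA-MB-231. With a longest intron of 100 kb and over in place of span, the medians were -0.56 and -0.58 in MDA-MB-231 and -0.029 in the hairpin comparison of MDA-MB-436. At the level rule, chosen after seeing the data, long genes had medians of -0.94 with the PROTAC in MDA-MB-231, against -0.15 and -0.30 in MDA-MB-436. Relatives under 100 kb had medians of 0.019 and 0.082 in MDA-MB-231 and -0.11 with the PROTAC in MDA-MB-436. The cause of these shifts was not tested.

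Leaving out each library in turn, the member medians ran from -1.38 to -1.31 (hairpin) and -1.50 to -1.34 (PROTAC) in MDA-MB-231. For MDA-MB-436 they ran from -0.22 (without hairpin library 3) to -0.051 and from -0.41 to -0.27. The PROTAC change of SLC25A21 there ran from -0.25 (without PROTAC library 1) to 0.37, and was -0.04 without DMSO library 3. The hairpin change of GRIP1 there, -0.07, was 0.10 with library totals alone and ran from -0.15 to 0.026. That of AKAP6, -0.21, ran from -0.37 to 0.12.

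The replicate numbers do not pair the libraries. With the number as a block, 42 and 41 members were lower in MDA-MB-231, while for MDA-MB-436 13 members fell and 4 rose, then 25 fell and 5 rose, with medians of -1.32, -1.36, -0.08 and -0.36. SLC25A21 (1.06) lost its hairpin call under the block. TBC1D5 passed the test in the hairpin comparison with the 6 libraries alone (-0.64), and GRIK4 with library totals alone (0.67).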
